A study of Homo sapiens with 22 samples.

Results

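The change from day 0 (D0) to day 6 (D6) of maturation was measured by RNA-Seq in the wild-type (WT) HUDEP-2 cells of the BAZ1B experiment. These samples were chosen by their labels alone, as the WT libraries of that experiment, and make up 6 of the 22 libraries of the series, 3 at each day. The study asked how histone H2A.X and its kinase BAZ1B act in late red cell maturation, and the remaining libraries are H2A.X knockout (KO), BAZ1B KO and the WT cells of the H2A.X experiment. HUDEP-2 is a human line immortalized from umbilical cord blood erythroid progenitors by a doxycycline-driven viral oncogene, and it is therefore 1 line and not a set of donors. At D0 the WT cells were growing in expansion medium, which per the study's methods holds stem cell factor, erythropoietin, dexamethasone and doxycycline. At D6 they had been in differentiation medium, which holds plasma, heparin, GlutaMAX, holo-transferrin, stem cell factor, insulin, erythropoietin and doxycycline and for which no dexamethasone is listed. Day and medium therefore cannot be told apart. The labels number the libraries of each day from 1 to 3 and do not say whether these are separate subclones or cultures. The p-values measure the spread between libraries of the same genotype and day, with the 6 BAZ1B KO libraries included. The spread between the WT libraries may be technical.

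Maturing erythroblasts build hemoglobin from globin chains and heme, take up iron for it, and assemble a spectrin skeleton under a membrane carrying band 3 and glycophorins. GATA1, KLF1 and TAL1 are the factors known to drive this program, while GATA2, KIT and PU.1 (SPI1) belong to the progenitor state that precedes it. The cells also stop dividing, condense their chromatin and, in the body, expel the nucleus, steps in which H2A.X phosphorylation, caspase cleavage of nuclear proteins, mitophagy and histone changes have been studied.

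The 6 WT libraries held between 34591047 and 41273244 counts. Replicates of 1 day resembled each other closely (Pearson r of log2 CPM of at least 0.99665 across genes), while the highest r between libraries of different days was 0.876. The label was checked against 14 erythroid markers, all of which were detected and all of which rose. Globin mRNA made up 0.281%, 0.285% and 0.215% of all counts at D0 and 2.28%, 2.11% and 2.49% at D6, and mRNAs of the mitochondrial genome fell from 4.14%, 3.82% and 3.06% to 2.33%, 2.29% and 2.39%. Because these are bulk samples, fewer cells of a type and less RNA per cell cannot be told apart. The mRNAs of BAZ1B and H2AFX, the targets of the study's knockouts, were at like levels on both days and are described further on.

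Between D0 and D6, 4654 genes rose and 4911 fell among 13879 tested, at a Benjamini-Hochberg adjusted p below 0.05 in edgeR's quasi-likelihood test, which is 33.5% and 35.4% of the genes. Counts of list members that rose or fell stand against these shares throughout. With so many calls, a stricter definition of a differentially expressed gene (DEG) was used to single out large changes: a log2 fold change above 1.5 or below -1.5 together with an adjusted p under 0.001. It is modelled on the study's definition, which is worded with the p-value rather than the adjusted p. It gave 582 DEGs that were higher at D6 (4.19%) and 1045 that were lower (7.53%). The losses were therefore more numerous among large changes than the gains, and this held at each size: 1341 genes rose and 1966 fell by 2-fold or more, 201 rose and 437 fell by 8-fold or more, and 68 rose and 111 fell by 32-fold or more. The median log2 fold change over all tested genes was -0.015. In 10824 genes (78%) the 3 libraries of 1 day lay wholly above those of the other, so that the lack of overlap alone singles out few genes. Levels are given as normalized counts, for which each library was scaled to the same effective size, and log2 fold changes are D6 against D0 with their standard error (SE). Wherever all 6 values are printed for a gene that rose or fell, the D0 and D6 libraries did not overlap.

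**Figure D1:**
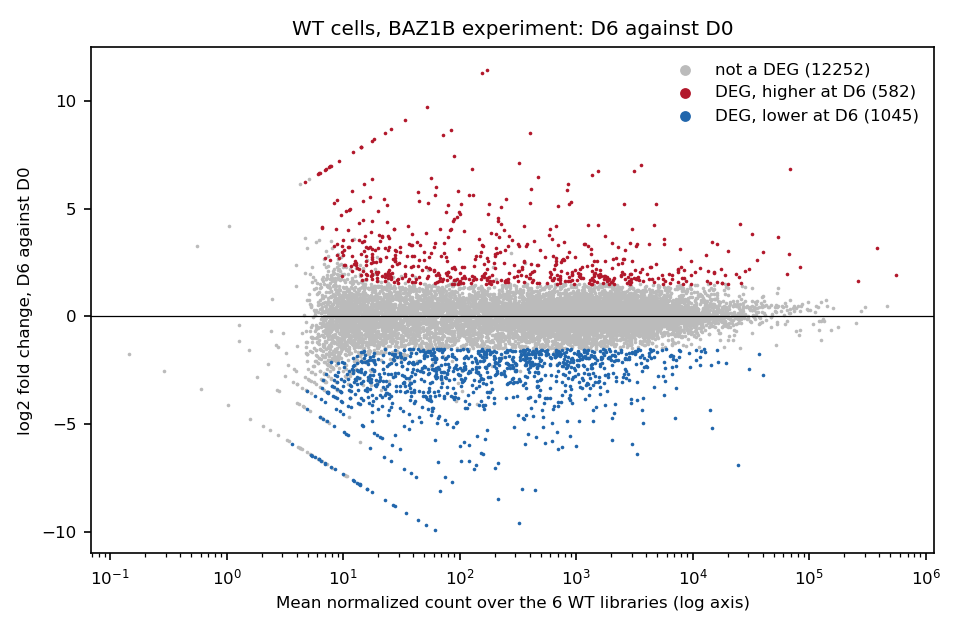
Each point is 1 of 13879 tested genes, with its mean normalized count over the 6 WT libraries on a logarithmic x axis and its log2 fold change (D6 against D0) on the y axis. The 582 DEGs higher at D6 are red and the 1045 lower at D6 are blue, and both are found at low and at high abundance; the diagonal rows of points at low counts are genes with few or no reads at 1 of the days.

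Among abundant genes with the largest gains was SLC4A1 (ENSG00000004939.16, chromosome 17, 44248390 to 44268141 in hg38), which encodes band 3, the chloride and bicarbonate exchanger of the red cell membrane. Its normalized counts were 1163, 1277 and 1178 at D0 and 129830, 124020 and 156350 at D6, a 113-fold rise (log2 fold change 6.83 ± 0.25, adjusted p = 1.85e-10). The 3 libraries of each day lay close together, with D6 replicate 3 the highest. TRIM10 (ENSG00000204613.11, chromosome 6, 30151943 to 30161211), a RING finger gene needed for terminal erythroid differentiation, had 53.9, 55.1 and 55.5 at D0 and 6664, 6363 and 8310.5 at D6 and rose 129-fold (7.02 ± 0.30, adjusted p = 5.09e-10). AQP1, the water channel that carries the Colton antigen, had 55.8, 58.6 and 57.3 at D0 and 5945, 5393 and 7178 at D6 (6.75 ± 0.33). In each of these genes a D0 level that was low but readily counted was followed by a high level in all 3 D6 libraries.

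SMOX (ENSG00000088826.18, chromosome 20, 4120980 to 4187747), the spermine oxidase gene, and CMKLR1, the receptor for chemerin, had no read in any D0 library. Their D6 values were 325, 307 and 410.1 for SMOX and 276, 287 and 369.8 for CMKLR1, which against a floor of 3 reads per library were at least 131-fold and at least 117-fold higher. Both genes thus went from undetected to moderate abundance. The other 10 of the 15 abundant genes with the largest rise were FBLN2 (fibulin-2, an extracellular matrix protein, 8.52), SMAD6 (an inhibitor of BMP signalling, 6.85), C17orf99 (interleukin-40, 6.76), the zinc exporter SLC30A1 (6.57), the pyrophosphate transporter ANKH (6.45), the endocytic receptor LRP1 (6.17), the tetraspanin TSPAN5 (5.92), the alkaline phosphatase ALPL (5.89), CR1L, related to complement receptor 1 (5.64) and H1F0, the replacement linker histone H1.0 (5.62). SLC30A1 illustrates the separation: it had 25.6, 31.9 and 28.2 at D0 and 2624, 2677 and 2887 at D6. FBLN2 and SMAD6 had at most 4 reads in each D0 library, so the sizes of their rises rest on few reads.

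The 15 abundant genes with the largest fall included a cytoskeletal gene and genes known from other blood lineages. VIM (ENSG00000026025.16, chromosome 10, 17228241 to 17237593), the intermediate filament vimentin, which erythroid cells are known to lose, had 51763, 48089 and 47402 at D0 and 465, 371 and 384 at D6 and fell 121-fold (-6.92 ± 0.37, adjusted p = 3.18e-09). EPX, the eosinophil peroxidase gene, had 885, 526 and 539 at D0 and 1.12, 1.13 and 0 at D6 and was at least 199.8-fold lower at D6 against the 3-read floor. ZNF521, a zinc finger cofactor of hematopoietic progenitors, had 6811, 6696 and 6426 at D0 and 106, 66.8 and 66.5 at D6 (-6.38 ± 0.27). EPX went to a trace in every D6 library, whereas VIM and ZNF521 were still counted there at a small fraction of their D0 level. CEBPA, the factor of granulocyte commitment, MYO1F, a class I myosin, and PSMB9, an immunoproteasome subunit, likewise fell to a mean of 2.21, 1.08 and 3.63 from 239, 430.2 and 421. The others were LRRC3B (-8.05), the orphan receptor GPR85 (-8.02), CCDC136 (at least 80.5-fold lower), the insulin-like growth factor binding protein IGFBP4 (at least 124-fold lower), the protease inhibitor SPINT1 (-6.71), ARID5B (-6.39), the Golgi mannosidase MAN1C1 (-6.35), the fatty acid elongase ELOVL2 (-6.14) and IKZF2, which encodes Helios (-6.06). The sizes for LRRC3B, GPR85 and MAN1C1 rest on at most 4 reads in each D6 library, and those for SPINT1 and ARID5B on at most 5.

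Measured by counts alone, the D6 transcriptome was led by CA1, carbonic anhydrase I, with 237720, 226570 and 224650 at D0 and 869060, 826630 and 935620 at D6 (3.82-fold), and by HBB, which encodes beta globin, with 85138, 84905 and 61201 at D0 and 686360, 636320 and 745570 at D6 (8.94-fold). TFRC, the transferrin receptor that brings in iron, was the fourth, with 128160, 128980 and 127630 at D0 and 400040, 397510 and 409230 at D6 (3.14-fold). Every D6 library was above every D0 library in all 3 genes. The remaining genes of the 10 with the most counts at D6 were the elongation factors EEF1A1 (0.48) and EEF2 (0.24), the poly(A) binding protein PABPC1 (0.44), the ribosomal proteins RPL13A (0.40) and RPL3 (0.75), tubulin TUBB (0.50), each of which rose, and MT-CO1 of the respiratory chain. MT-CO1 had 323500, 291860 and 228130 at D0 and 225970, 218340 and 241760 at D6 and did not pass the test (-0.30 ± 0.14, adjusted p = 0.0823). D0 replicate 3 was the lowest of its day; without it the gene was called lower at D6 (-0.43, adjusted p = 0.0179), as it was with no filter on low counts and with only the 6 WT libraries fitted.

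All 9 globin genes tested rose, against 33.5% of all genes, and 8 of them were DEGs; their median log2 fold change was 3.68. The alpha chain gene HBA1 had 8506, 8068 and 7054 at D0 and 100400, 91409 and 110350 at D6 (12.8-fold). Its copy HBA2 had 4237, 5014 and 3809 at D0 and 61119, 51531 and 70440 at D6 (14-fold). HBA1 and HBA2 are near-identical copies, so the split of reads between them is uncertain. HBD, the minor adult delta chain, rose 19.8-fold and HBM, the mu chain, 19.2-fold, more than HBB (8.94-fold). The embryonic zeta gene HBZ had 46.6, 49.1 and 37 at D0 and 468, 321 and 764 at D6 (3.55 ± 0.37). The fetal gamma gene HBG2 had 60.3, 125 and 52.9 at D0 and 1052, 946 and 1247 at D6 (3.76 ± 0.33). Both rose from a trace and remained at a small fraction of the adult chains, and HBZ varied more than the others between the D6 libraries. HBG2 has a near-identical copy, HBG1, so the split of reads between them is uncertain. The level of HBG2 need not be that of all gamma globin mRNA. Per kilobase of transcript, the mean D6 level was 1097800 for HBB, 174560 for HBA1, 105950 for HBA2, 78834 for HBD, 1846 for HBG2 and 649 for HBZ. HBQ1, the theta gene, rose least (1.34 ± 0.096), and the embryonic epsilon gene HBE1 had too few reads to be tested.

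The 8 enzymes of heme synthesis all rose, 6 of them as DEGs, at a median log2 fold change of 1.76. The first and rate-limiting enzyme of the erythroid pathway, ALAS2, rose most, with 8824, 9320 and 8722 at D0 and 68914, 65169 and 80508 at D6 (7.99-fold, 3.00 ± 0.13, adjusted p = 6.26e-10). In pathway order, other enzymes rose 4.39-fold (ALAD), 3.04-fold (UROS), 2.57-fold (UROD), 3.77-fold (CPOX), 2.57-fold (PPOX) and 4.34-fold (FECH, which inserts the iron). The whole chain was thus raised by 2.57-fold or more, and its entry by the largest factor. Among 12 genes of heme transport, breakdown and globin chaperoning, 8 rose, 3 fell and 1 did not pass the test. TMEM14C, which moves the porphyrin precursor into the mitochondrion, and ABCB10, a mitochondrial transporter, rose 2.81-fold and 2.7-fold. AHSP, the alpha globin chaperone, had 10545, 11760 and 11268 at D0 and 38933, 37355 and 41613 at D6 (3.51-fold); SLC25A39, a mitochondrial carrier that imports glutathione, had 4614, 4398 and 4434 at D0 and 35361, 33817 and 39335 at D6 (8.07-fold); and SLC25A38, the mitochondrial glycine carrier, rose 2.14-fold. BLVRB, a biliverdin reductase, rose 4.63-fold (2.21 ± 0.049), whereas HMOX1, the inducible heme oxygenase that breaks heme down, fell 3.14-fold (-1.65 ± 0.27) and the constitutive HMOX2 fell 2.82-fold (-1.49 ± 0.088).

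Promoter sequence is shown for 3 of the genes that rose, because they belong to different branches of the program and each has a single start in RefSeq (build GRCh38.p14): ALAS2 of heme synthesis, EPB42, which encodes protein 4.2 of the membrane, and TRIM10. Each sequence holds the 250 bases before the start, 5′ to 3′ on the strand of the gene, with capitals marking the letters AGATAA or TGATAA on either strand (TTATCT or TTATCA as read here), the core that GATA factors are known to prefer. The regions are chrX:55030978-55031227 and chr15:43221019-43221268 and chr6:30161212-30161461, all on the minus strand, and no GENCODE exon overlaps them.
ALAS2: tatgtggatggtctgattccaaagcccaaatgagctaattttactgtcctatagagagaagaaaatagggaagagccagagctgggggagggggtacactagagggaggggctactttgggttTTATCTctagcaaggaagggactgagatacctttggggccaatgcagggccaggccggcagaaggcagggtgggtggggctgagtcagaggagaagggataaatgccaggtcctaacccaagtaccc
EPB42: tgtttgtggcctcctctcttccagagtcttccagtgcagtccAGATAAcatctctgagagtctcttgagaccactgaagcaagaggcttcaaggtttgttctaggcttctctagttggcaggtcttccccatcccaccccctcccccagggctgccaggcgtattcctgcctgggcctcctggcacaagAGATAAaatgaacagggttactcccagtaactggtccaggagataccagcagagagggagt
TRIM10: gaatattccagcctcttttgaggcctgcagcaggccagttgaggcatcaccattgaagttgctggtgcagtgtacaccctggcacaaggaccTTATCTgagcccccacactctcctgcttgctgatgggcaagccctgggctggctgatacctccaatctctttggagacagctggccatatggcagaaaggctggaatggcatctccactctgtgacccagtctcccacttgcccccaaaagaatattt
The match starts 127 bases before the start of ALAS2, 208 and 61 bases before that of EPB42 and 158 bases before that of TRIM10. Of 25 DEGs that were higher at D6 in the heme, membrane skeleton and surface antigen lists, 10 had 1 promoter in the RefSeq table and 5 of these held the letters, while 5113 of all 35116 promoters of the table did (14.6%). Those without the letters were BLVRB, FECH, GYPC, SLC25A39 and TPM1, and TRIM10 is not among the 10. The 3 printed promoters were picked by name, all hold the letters and do not stand for the rest. The lists were chosen with earlier results known, and the shares were not tested against each other. A match is a description of the letters and not of binding.

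Of 16 genes of the spectrin skeleton and its anchors, 15 rose and 1 fell, and 6 were DEGs; the median log2 fold change was 1.33. The beta spectrin gene SPTB had 30752, 30799 and 30852 at D0 and 74928, 74792 and 81729 at D6 (2.5-fold). ANK1, the ankyrin that ties spectrin to band 3, was already abundant and rose 1.67-fold (0.74 ± 0.048). EPB42 rose 3.43-fold, DMTN (dematin, an actin bundler) 4.14-fold and TMOD1, the tropomodulin that caps the short actin filaments of the skeleton, 4.6-fold. Of the tropomyosins, TPM1 rose (1.63 ± 0.068) and TPM3 was the only member of this list to fall, with 13069, 13016 and 12402 at D0 and 8763, 8908 and 8174 at D6 (-0.57 ± 0.045). The gain of SLC4A1 therefore stood far outside the range of the rest of the list, whose next largest log2 fold change was that of TMOD1 (2.20).

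Among 26 blood group carriers and other surface proteins tested, 20 rose, 4 fell and 2 did not pass the test; the median log2 fold change was 1.15. The Rh genes RHD and RHCE rose 18.9-fold and 9.61-fold, from 126 and 238 to 2391 and 2287; their partner RHAG, which was abundant at D0, rose 2.52-fold. RHD and RHCE are similar copies between which reads may be split in part. ABCG2, the transporter that carries the Junior antigen, rose 12.7-fold from a low level, ART4 (Dombrock) 6.92-fold and ACKR1 (Duffy) 5.24-fold. CD55, a complement regulator, fell slightly (-0.23 ± 0.076) and had no call without D0 replicate 1 (adjusted p = 0.0611) or without D6 replicate 2 (adjusted p = 0.052). CD44, an adhesion receptor whose loss marks maturing erythroblasts, had 3263, 3311 and 3145 at D0 and 2968, 2796 and 2998 at D6 (-0.15 ± 0.051, adjusted p = 0.0184); it turned to 0.035 with counts corrected for transcript length and GC content and had no call without D0 replicate 1, D0 replicate 2 or D6 replicate 2. CD36, a scavenger receptor, had 9998, 9921 and 10031 at D0 and 61454, 60908 and 61524 at D6 (6.14-fold, 2.62 ± 0.044). CD47, the signal against phagocytosis, went the other way, with 5936, 5813 and 5889 at D0 and 2393, 2376 and 2413 at D6 (-1.30 ± 0.069, adjusted p = 3.37e-09).

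Of 14 genes of gas, ion and water transport, 10 rose, 3 fell and 1 did not pass the test, and 8 of those that rose were DEGs. The carbonic anhydrases CA1, CA2 and CA3 rose (3.82-fold, 3.92-fold and 2.89-fold), and the glycerol and water channel AQP3 rose 3.36-fold. KCNN4, the Gardos potassium channel, had 177, 222 and 218 at D0 and 2075, 1937 and 2407 at D6 (10.4-fold). SLC12A4, a potassium and chloride cotransporter, rose (2.13 ± 0.11). PIEZO1, the mechanosensitive channel, fell slightly (-0.21 ± 0.064).

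Of 18 genes of iron uptake, storage and use, 14 rose, 3 fell and 1 did not pass the test, with a median log2 fold change of 0.49. Genes that rose lay along the route of iron into the mitochondrion: TFRC (3.14-fold), the endosomal transporter SLC11A2 (2.56-fold), SLC25A37 or mitoferrin-1, with 15670, 15816 and 16318 at D0 and 108430, 112170 and 135850 at D6 (7.46-fold), and GLRX5, of iron-sulfur cluster assembly (2.49-fold). NCOA4, which delivers ferritin for breakdown, rose 1.95-fold. The ferritin chains FTH1 and FTL changed little by comparison, by 1.59-fold and 1.16-fold, and SLC40A1, the iron exporter ferroportin, fell (log2 fold change -0.28 ± 0.041). HFE, a regulator of iron sensing, had 31.1, 39.6 and 30.8 at D0 and 0, 1.13 and 0 at D6 and was at least 10.4-fold lower.

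Among 18 transcription factors of the erythroid program, 17 rose, 2 of them as DEGs (median log2 fold change 1.05). GATA1 had 5664, 5364 and 5297 at D0 and 12256, 12027 and 12675 at D6 (2.26-fold). KLF1 had 18613, 17532 and 17755 at D0 and 35991, 34070 and 39108 at D6 (2.03-fold), and TAL1 had 5728, 5779 and 5453 at D0 and 14899, 14655 and 16724 at D6 (2.73-fold). These factors were thus well expressed at D0 and rose by modest factors. Of the larger changes, SOX6, a repressor of embryonic globin genes, had 273, 296 and 267 at D0 and 2329, 2315 and 2622 at D6 (8.69-fold) and MXI1, a MYC antagonist, rose 3.6-fold. ZFPM1 (FOG1, the GATA1 cofactor), NFE2, FOXO3 and BCL11A, the repressor of gamma globin, rose 2.82-fold, 2.7-fold, 2.73-fold and 2.12-fold. MAFK, a small MAF partner of NFE2, was the 1 factor to fall (-0.52 ± 0.09).

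Of 15 regulators and receptors of stem and progenitor cells tested, 11 fell, 3 rose and 1 did not pass the test, with a median log2 fold change of -1.28. KIT, the receptor for stem cell factor, which was in both media, had 27214, 27221 and 26297 at D0 and 6438, 6246 and 5869 at D6 (4.35-fold lower, -2.12 ± 0.16). GATA2, whose place on chromatin GATA1 is known to take, had 10323, 10026 and 9959.8 at D0 and 2991, 3031 and 2424 at D6 (3.59-fold lower). SPI1, which encodes PU.1, had 1233, 1176 and 1177 at D0 and 71.4, 69 and 42.3 at D6 (19.7-fold lower). Each was lower in all D6 libraries, and of these genes SPI1 lost the largest share. CSF2RB, the shared beta chain of the receptors for interleukin-3, interleukin-5 and GM-CSF, fell 20.1-fold from 6960.2 to 347, HHEX fell 10.1-fold, MYB 2.42-fold and RUNX1 2.16-fold. CD34, the surface marker of early progenitors, was at the limit of detection on both days (means of 5.59 and 5.08). MYC did not fall: it had 25974, 25098 and 24233 at D0 and 30320, 29021 and 28833 at D6, a rise of 1.17-fold (0.23 ± 0.07, adjusted p = 0.0109).

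Of 17 genes of erythropoietin signalling, 10 rose, 6 fell and 1 did not pass the test. EPOR, the erythropoietin receptor, had 2989, 3174 and 3096 at D0 and 9771, 9856 and 10735 at D6 (3.28-fold), its kinase JAK2 rose 2.7-fold and the adaptor GAB1 3.06-fold. STAT5A fell 1.3-fold (-0.37 ± 0.089) and STAT5B had 6035, 6204 and 6268 at D0 and 6192, 6342 and 6592 at D6, with no call (adjusted p = 0.293). Of the known STAT5 targets, CISH rose 3.8-fold and ERFE, the hormone erythroferrone that lowers hepcidin, had 971, 1029.6 and 1051 at D0 and 9596, 9822 and 11647 at D6 (10.2-fold). The phosphatase PTPN6 (SHP-1), which shuts off the receptor, had 4089.6, 4109 and 4046 at D0 and 282, 223 and 233 at D6 (16.6-fold lower), and the kinase LYN fell 4.02-fold.

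**Figure D2:**
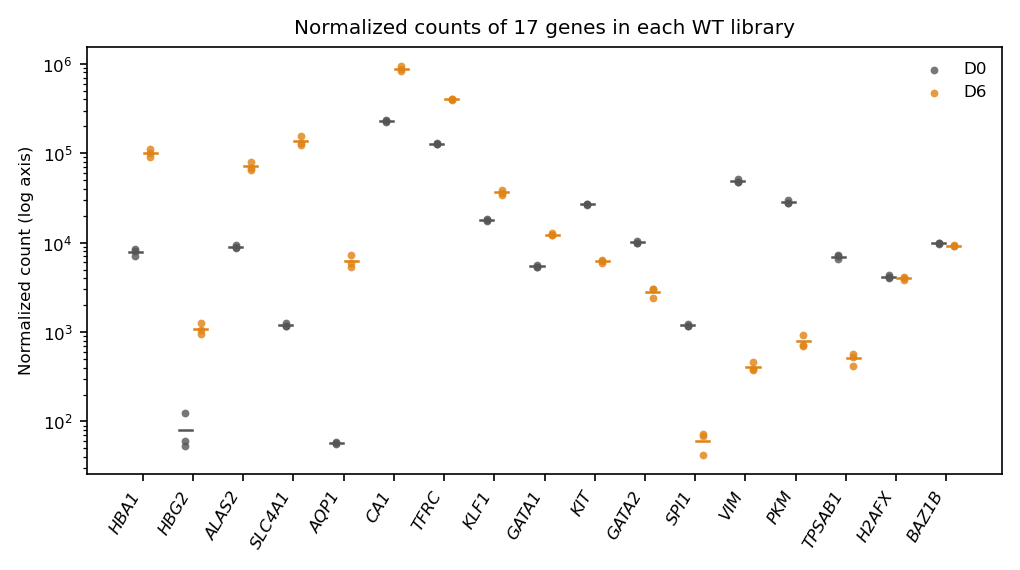
Normalized counts (logarithmic y axis) of 17 genes in each of the 3 D0 libraries (grey) and 3 D6 libraries (orange), with a bar at each mean. SLC4A1 and AQP1 rose by about 2 orders of magnitude and VIM fell by as much, GATA1 and KLF1 moved by a small factor, and H2AFX and BAZ1B stayed within a narrow band.

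Of 19 genes tied to nuclear condensation and loss of the nucleus, 12 rose, 4 fell and 3 did not pass the test (33.5% of all genes rose and 35.4% fell). After TRIM10, the largest rises were those of YPEL4 (3.82-fold), the deacetylase HDAC5 (3.71-fold) and RANBP10 (3.04-fold). TRIM58, a ubiquitin ligase of dynein, had 4132, 4242 and 4097 at D0 and 6539, 6677 and 6818 at D6 (1.61-fold), whereas XPO7, the exporter of histones from the erythroblast nucleus, had 12641, 12127 and 11899 at D0 and 11868, 12266 and 11435 at D6 and did not pass the test. The formin DIAPH1 and the actin regulator PLEK2 fell 2.16-fold and 2.49-fold.

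H2A.X, its kinases and readers, the caspases and their nuclear substrates formed a list in which few genes rose: of 29 tested, 4 rose, 15 fell and 10 did not pass the test. Of all genes, 33.5% rose and 35.4% fell. Their log2 fold changes lay between -1.52 and 0.58, with the median at -0.21, or -0.062 with the length and GC correction described next. H2AFX had 4127, 4001 and 4310 at D0 and 4008, 3821 and 4135 at D6 (-0.056 ± 0.058, adjusted p = 0.404). BAZ1B, which phosphorylates H2A.X on a tyrosine, had 9913, 9823 and 9703 at D0 and 9135, 9429 and 9104 at D6 (-0.09 ± 0.067, adjusted p = 0.25). With counts corrected for transcript length and GC content, which moved the median of all genes from -0.015 to 0.090, H2AFX turned to 0.17 (adjusted p = 0.00328), BAZ1B to 0.11 (adjusted p = 0.118) and XPO7 to 0.13 (adjusted p = 0.0168). BAZ1B was called lower with only the 6 WT libraries fitted (-0.087, adjusted p = 0.0204). The spread in the main fit also came from the BAZ1B KO libraries, in which this gene was the target. APAF1 of the apoptosome had 806, 877 and 862 at D0 and 401, 369 and 398 at D6 (2.18-fold lower, adjusted p = 2.4e-08). DFFB, the caspase-activated DNase, fell 2.47-fold, LMNB1 (lamin B1) 1.34-fold and ACIN1 (acinus, a caspase substrate of chromatin condensation) 1.12-fold, the last without a call after the length and GC correction (-0.016, adjusted p = 0.743). LBR, the lamin B receptor, rose 1.5-fold. These are mRNA levels and carry no information on protein amount, phosphorylation or cleavage. By immunoblot, the paper reported a loss of BAZ1B protein and a rise of H2A.X protein as HUDEP-2 cells matured.

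Among 14 BCL2 family genes, 8 rose, 4 fell and 2 did not pass the test (33.5% of all genes rose and 35.4% fell). BCL2L1 (BCL-XL), the survival gene that erythropoietin is known to maintain, had 4284, 4156 and 4107 at D0 and 8784, 8517 and 9389.6 at D6 (2.13-fold), and BAX, a pore former, had 5675, 5457 and 5728 at D0 and 3068, 3059 and 3179 at D6 (1.81-fold lower). Genes of the BH3-only class moved both ways: BBC3 and BMF rose 2.49-fold and 3.49-fold, and BIK fell 5.14-fold. Among 10 replication-independent histone genes, 6 rose and 1, H2AFZ, fell (-0.39 ± 0.045). The linker histone H1F0 had 2.74, 5.17 and 6.17 at D0 and 218, 269 and 228 at D6 (49.2-fold) and the second replacement linker, H1FX, rose 2.64-fold. Replication-dependent histone mRNAs lack a poly(A) tail and reach oligo-dT libraries only as traces (0.0050% to 0.0066% of counts here), so their calls (42 tested, 5 higher, 12 lower), and those of 3 small structural RNAs, of which 1 was lower, rest on few reads.

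Genes of cell division were higher at D6 by small factors. Of 34 genes of DNA replication 28 rose and 6 did not pass the test (median log2 fold change 0.44). Of 31 genes of mitosis 29 rose and 2 did not pass the test (0.50), and all 8 condensin subunits rose (0.43). TOP2A, topoisomerase II alpha, had 21913, 21095 and 21019 at D0 and 34077, 35345 and 35420 at D6 (1.64-fold), CDK1 had 3968, 3904 and 3906 at D0 and 8318, 8178 and 8225 at D6 (2.1-fold) and MCM5 of the replicative helicase rose 1.76-fold. Of 15 genes of the G1 machinery 11 rose and 3 fell, at a like median (0.45), with larger changes in some members. CCND3, the cyclin D of erythroid cells, had 5230.4, 5327 and 5000.2 at D0 and 21466, 20655 and 24358 at D6 (4.27-fold), CCNE1 rose 4.96-fold and E2F2 4.41-fold, while E2F3 fell 1.92-fold. Inhibitors rose in the same cells: BTG2, an antiproliferative gene, had 611, 606 and 633 at D0 and 5689.5, 5559 and 6603 at D6 (9.65-fold), CDKN1B (p27) rose 1.84-fold, and CDKN1A (p21) rose 5.07-fold from a level of 8.53; of 10 inhibitors tested 6 rose and 4 did not pass the test.

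Of 28 genes of autophagy, 14 rose, 7 fell and 7 did not pass the test (33.5% of all genes rose and 35.4% fell). The median log2 fold change of the list was 0.27, and 0.43 with the length and GC correction. The initiating kinase ULK1 had 511, 513 and 510.3 at D0 and 1687, 1599 and 2016 at D6 (3.46-fold), WIPI1 of the phagophore rose 6.02-fold and the mitophagy receptor OPTN rose 3.97-fold. BNIP3L (NIX), the receptor through which red cells are known to clear mitochondria, was lower at D6, with 16365, 16134 and 16338 at D0 and 12715, 11437 and 11585 at D6 (-0.45 ± 0.064, adjusted p = 3.45e-05), and the lysosomal LAMP2 fell 1.85-fold.

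**Figure D3:**
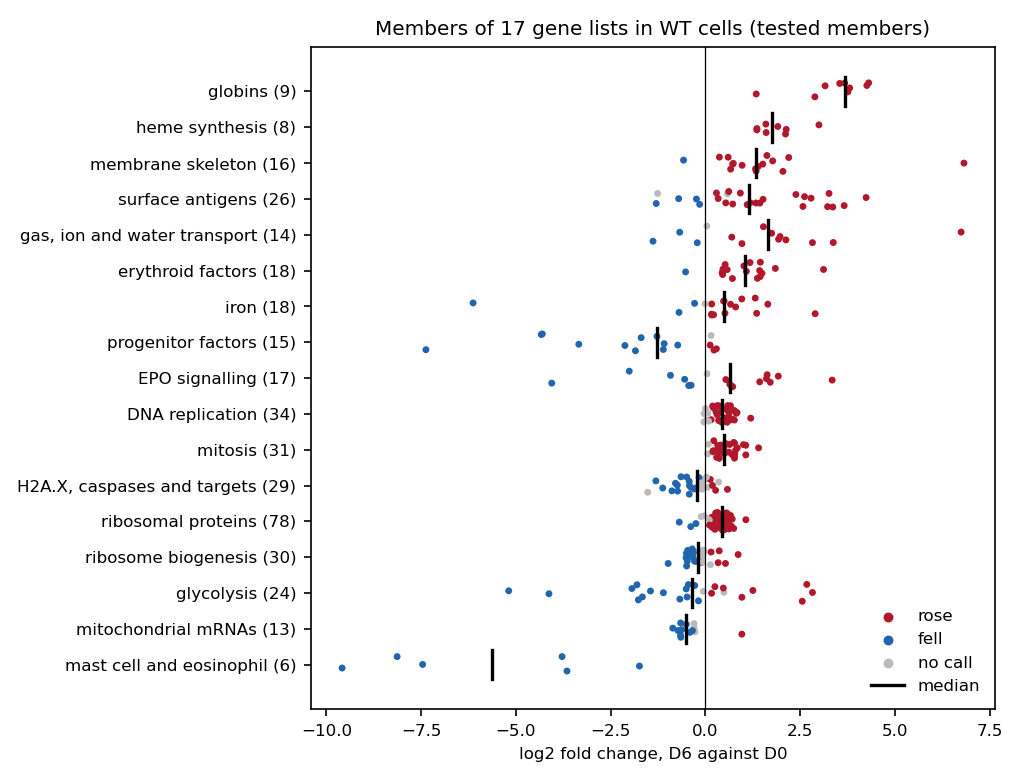
Log2 fold change (D6 against D0, x axis) of each tested member of 17 gene lists in WT cells; red points rose, blue points fell, grey points had no call at an adjusted p of 0.05, and the black bar is the median. All globins and heme enzymes and 15 of 16 skeleton genes lie to the right of 0, 11 of 15 progenitor factors and all 6 mast cell and eosinophil genes fell, and the replication and mitosis lists form narrow bands just above 0.

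Of 24 genes of glucose metabolism, 8 rose, 14 fell and 2 did not pass the test (median log2 fold change -0.36), and isoforms of the same step moved in opposite directions. PKM, the pyruvate kinase of most cells, had 30303, 28083 and 27476 at D0 and 931, 719.7 and 706 at D6 (36.5-fold lower, -5.19 ± 0.19, adjusted p = 1.71e-10), while PKLR, the isozyme of red cells and liver, had 20709, 19937 and 19823 at D0 and 28649, 26852 and 28537 at D6 (1.39-fold higher). Per kilobase of transcript, the mean level of PKM went from 12417 to 341 and that of PKLR from 6615 to 9194, so that the order of the isozymes was inverted. HK2 fell 3.83-fold and HK1 rose 1.95-fold; PFKP fell 3.49-fold and PFKM, with 703, 714 and 695 at D0 and 4377, 4427 and 4712 at D6, rose 6.4-fold; and of the glucose transporters SLC2A3 fell 17.5-fold while SLC2A1, with 3298, 3231 and 3139.5 at D0 and 22461, 20765 and 25382 at D6, rose 7.1-fold. BPGM, which makes the 2,3-bisphosphoglycerate that lowers oxygen affinity, rose 5.89-fold, and ENO1, GPI and LDHA fell 3.4-fold, 3.16-fold and 2.73-fold.

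Of 13 mRNAs of the mitochondrial genome, 9 fell and 1 rose (median log2 fold change -0.50, and -0.63 without D0 replicate 3, which had the lowest mitochondrial share of its day). MT-CYB fell 1.81-fold. The gene that rose, MT-ND6 (0.96 ± 0.16), is encoded on the light strand opposite heavy-strand transcripts, and without strand its reads cannot be told apart from theirs. Nuclear genes of the respiratory chain showed no common direction (82 tested, 30 higher, 22 lower, median 0.077), where 33.5% of all genes rose and 35.4% fell. Antioxidant genes were also split (17 tested, 9 higher, 6 lower): PRDX2, a peroxiredoxin abundant in red cells, had 28303, 28375 and 27843 at D0 and 139430, 130050 and 146030 at D6 (4.92-fold), catalase (CAT) rose 2.88-fold and SELENBP1 4.21-fold, whereas NQO1 fell 15.2-fold. Cholesterol and fatty acid genes had a median near 0 (-0.0086, 30 tested, 12 higher, 9 lower), which turned to 0.11 with the length and GC correction.

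Of 19 genes of the ATF4 stress response, 14 rose, 2 fell and 3 did not pass the test (median 0.78). ATF3 had 31.1, 34.5 and 23.8 at D0 and 276, 289 and 295 at D6 (9.58-fold) and CHAC1, which degrades glutathione, rose 4.44-fold. Of 17 genes of the glucocorticoid response, 10 rose, 6 fell and 1 did not pass the test, although dexamethasone was listed only for the D0 medium. FKBP5, a sensitive target of the receptor, had 42111, 40638 and 40037 at D0 and 43129, 40211 and 43045 at D6 and no call (adjusted p = 0.483); TSC22D3 (GILZ), KLF9 and DUSP1 rose 2.24-fold, 3.57-fold and 3.85-fold; and GLUL, glutamine synthetase, had 77847, 74827 and 71532 at D0 and 30611, 29234 and 30654 at D6 (2.48-fold lower). After the length and GC correction FKBP5 was called higher at D6 (0.18, adjusted p = 0.0211), as was STAT5B (0.21, adjusted p = 0.000465). ARG1, arginase 1, known from mature red cells, had 2.74, 1.72 and 3.53 at D0 and 79.2, 98.4 and 137 at D6 (37.8-fold), the largest change among 9 arginine and polyamine genes listed, of which 4 rose and 2 fell. The size of this rise rests on at most 4 reads in each D0 library, and SMOX, described above, is not in this list. Of 10 interferon-stimulated genes tested, 2 rose and 3 fell.

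Cytoplasmic ribosomal protein genes rose almost as 1 group, 72 of 78, with 3 lower and a median log2 fold change of 0.43, whereas of 30 ribosome biogenesis genes 18 fell and 5 rose (median -0.20). Ribosomal protein mRNA accounted for 7.91% to 8.15% of the counts at D0 and 9.54% to 9.85% at D6. Of 31 proteasome subunits, 14 rose and 3 fell by small amounts (median 0.10, and 0.16 with the length and GC correction).

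The 6 mast cell and eosinophil granule genes that could be tested all fell, 5 of them as DEGs, with a median log2 fold change of -5.62, or -4.58 with the 3 genes that had at most 3 reads in each D6 library set at their bound. The tryptase genes TPSAB1 and TPSB2, near-identical copies, made up most of the sum. TPSAB1 had 7027, 7347 and 6533 at D0 and 574, 418 and 529 at D6 (13.7-fold lower), and TPSB2 had 10870, 10737 and 10169 at D0 and 946, 699 and 882 at D6 (12.6-fold lower). CPA3, the mast cell carboxypeptidase, was at least 45.7-fold lower, and MS4A2, the beta chain of the IgE receptor, at least 41.8-fold lower. The summed normalized count of all 13 markers was between 17549 and 19094 at D0 and between 1127 and 1532 at D6, and 4 of them, FCER1A, CMA1, CLC and RNASE3, had no read in any library. CSF2RB, KIT, GATA2 and CEBPA also fell between these days, as did 35.4% of all genes. The part of such cells or transcripts in the falls of these 4 genes was not tested.

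Of the 10 megakaryocyte markers, only ITGA2B, which fell 7.9-fold, and TUBB1, which rose 4.31-fold, could be tested, and the sum of the list went from between 2822 and 2978 to between 828 and 960; PF4, PPBP and GP1BB had no read. Of 11 granulocyte and monocyte markers 4 were tested: LYZ, lysozyme, fell 30.7-fold, PRTN3 was at least 5.9-fold lower, FCGR3A rose 7.98-fold at trace levels and AZU1 had no call. The sum of the 11 went from between 202 and 280 to between 40.2 and 46.3, and S100A8, S100A9 and CTSG had no read. The 9 lymphoid markers summed to between 5.66 and 16.5 in all 6 libraries, and the 1 that could be tested had no call.

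The same days were compared in BAZ1B KO cells, to show where the WT change differs from that without BAZ1B. In 343 of 13879 genes (2.47%) the change differed at an adjusted p below 0.05 in the interaction test, 219 with the higher and 124 with the lower value in KO. The count was smaller without any single WT library: 123, 119 and 143 without D0 replicate 1, 2 or 3 of WT, and 188, 154 and 161 without D6 replicate 1, 2 or 3. The 10 genes with the largest differences moved the same way in both genotypes. PKM had a log2 fold change of -5.19 in WT and -7.91 in KO (difference -2.72 ± 0.27, adjusted p = 0.000468), and RUNX2, a RUNX factor known for its part in bone formation, -4.71 and -9.08 (-4.37 ± 0.60, adjusted p = 0.00329). RUNX2 had a mean of 1.05 at D6 in KO, so the size of its difference depends on the prior count of the fit. ANXA1 (annexin A1), SIGLEC6, a receptor of mast cells, and SPTAN1, the non-erythroid spectrin, had differences of -4.15 ± 0.59, -3.04 ± 0.39 and -2.86 ± 0.61, so these genes fell less in WT than in KO; the fall of ANXA1 in WT (-1.23, adjusted p = 0.00589) was not called by DESeq2 (adjusted p = 0.0644).

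In the other direction, LTBP1, which binds latent TGF-beta, rose by 5.21 in WT and 8.03 in KO (difference 2.82 ± 0.32, adjusted p = 0.00118), from a mean of 135 in WT and 7.94 in KO at D0 to 4992 and 2115 at D6. C17orf99, GLIPR2 and FRMD4A differed by 2.80 ± 0.58, 2.82 ± 0.63 and 2.95 ± 0.47, each with a mean below 4 at D0 in KO. PITX1 had no read at D0 in KO (5.48 ± 0.91), and the sizes of these 4 differences likewise depend on the prior count. Of genes described above, SLC4A1 rose less in WT than in KO (2.11 ± 0.32, adjusted p = 0.0053), having started from 1206 in WT and 164 in KO, and CA2, BPGM and HBB rose more in WT (differences -0.90 ± 0.13, -0.77 ± 0.10 and -0.84 ± 0.16, KO minus WT, the last at an adjusted p of 0.0181). HBB was the 1 globin gene of 9 to pass this test. Of 30 cholesterol and fatty acid genes 9 passed it, with a median log2 fold change of 0.27 in KO and -0.0086 in WT, the latter turning with the length and GC correction as given above.

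The WT cells of the H2A.X experiment went through the same 2 days in 2 libraries each, with between 11910141 and 16171864 counts. In 1 fit of the 10 WT libraries (14477 genes), 3839 genes rose and 4023 fell in WT of the BAZ1B experiment, with 549 and 1019 DEGs, and 1669 rose and 2028 fell in WT of the H2A.X experiment, with 70 and 108 DEGs. The difference of the changes itself passed the interaction test in 3257 genes (22.5%); leaving out D0 replicate 2 of the H2A.X experiment moved this to 4888. The 2747 genes called in both were 34.9% and 74.3% of the genes called in each, and 2489 of them (90.6%) had the same direction. Across all genes, which are not independent replicates, Pearson's r of the changes was 0.394. Over the 1568 DEGs of the BAZ1B experiment in this fit the change in the H2A.X experiment was in the median 0.332 of that in the BAZ1B experiment, smaller with the same sign in 1138 and of opposite sign in 310. These genes were picked by a large change in the BAZ1B experiment, which by itself favours a smaller change in the other. The ratio therefore does not compare the experiments evenly. Replication-dependent histone mRNAs and small structural RNAs, which lack poly(A) tails, had median log2 fold changes of 2.08 and 3.14 in the H2A.X experiment and -0.44 and 0.43 in the BAZ1B experiment, and the part of such library differences in the results that follow was not tested. Experiment, WT culture and sequencing cannot be told apart in this comparison.

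The erythroid lists moved less in the H2A.X experiment: the median log2 fold change was 1.12 against 3.69 for globins, 0.49 against 1.77 for heme enzymes and 0.052 against 1.34 for the membrane skeleton. All 16 skeleton genes, 7 of 8 heme enzymes and 6 of 9 globins passed the test of the difference, against 22.5% of all genes. The DNA replication list, higher at D6 in the BAZ1B experiment, had a median of -0.13 in the H2A.X experiment against 0.45. Of its 34 genes, 19 passed this test. The mitosis list had medians of 0.29 and 0.52, and 10 of its 31 genes passed. For SLC4A1, ALAS2 and HBB, the WT cells of the H2A.X experiment already held more mRNA at D0, while the D6 levels were closer. SLC4A1 had 18771 and 14899 at D0 and 30872 and 43250 at D6 there, and means of 926 at D0 and 105850 at D6 in the BAZ1B experiment (difference 5.70 ± 0.25, adjusted p = 1.16e-06). ALAS2 had 31435 and 34094 at D0 and 45932 and 58331 at D6, and means of 6877 at D0 and 55373 at D6 in the BAZ1B experiment (2.34 ± 0.18). HBB had 388660 and 592670 at D0 and 688070 and 1211600 at D6, and means of 59191 at D0 and 533710 at D6 (2.22 ± 0.36). ANK1 went the other way, with 24906 and 14971 at D0 and 20197 and 17568 at D6, and means of 39635 at D0 and 66649 at D6 in the BAZ1B experiment (0.83 ± 0.24), and was thus lower in the H2A.X experiment on both days.

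SPI1, PKM and GATA2 showed the converse, with lower levels at D0 in the H2A.X experiment. GATA2 had 2035 and 1769 at D0 and 2693 and 1430 at D6 there, with no call (0.12, adjusted p = 0.735). Its means in the BAZ1B experiment were 7757 at D0 and 2180 at D6 (difference -1.96 ± 0.29, adjusted p = 0.000849). In the H2A.X experiment the progenitor list had a median of -0.24, against -1.26 in the BAZ1B experiment. Of its 15 genes, 12 passed the test of the difference, against 22.5% of all genes. SPI1 had 177 and 165 at D0 and 135 and 102 at D6 in the H2A.X experiment, and means of 918 at D0 and 47.2 at D6 in the BAZ1B experiment (-3.79 ± 0.29, adjusted p = 1.15e-05), and PKM had 632 and 699 at D0 and 501 and 218 at D6, and means of 21975 at D0 and 608 at D6 (-4.33 ± 0.35). The largest negative differences included genes at low levels on both days of the H2A.X experiment, where the highest single value was 42.7 (RUNX2), namely MYO1F (-8.62 ± 0.91), GPR85 (-7.16 ± 1.70), PSMB9 (-6.93 ± 0.80) and RUNX2 (-7.22 ± 0.99); CST7 (cystatin F) rose there, with 16.7 and 13.6 at D0 and 308 and 125 at D6, and fell in the BAZ1B experiment (-6.83 ± 0.50). In the positive direction the largest were LRP1 (6.59 ± 0.54), TRIM10 (5.78 ± 0.33), ANKH (5.77 ± 0.41) and SLC4A1, beside SMOX, whose fitted value (8.38 ± 1.28) and place in this order depend on the prior count of the fit, since it had no read at D0 in the BAZ1B experiment. The same holds for the size of the MYO1F difference, a gene with at most 2 reads in each D6 library of the BAZ1B experiment. The sizes for GPR85 and PSMB9 rest on at most 4 reads in each of these libraries. KCNN4 and H1F0 rose in both experiments, by 3.39 and 5.62 in the BAZ1B experiment and 3.54 and 5.09 in the H2A.X experiment, and their differences of -0.16 ± 0.24 (adjusted p = 0.697) and 0.53 ± 0.62 (adjusted p = 0.596) did not pass the test. Ribosomal protein genes had medians of 0.44 and 0.56.

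**Figure D4:**
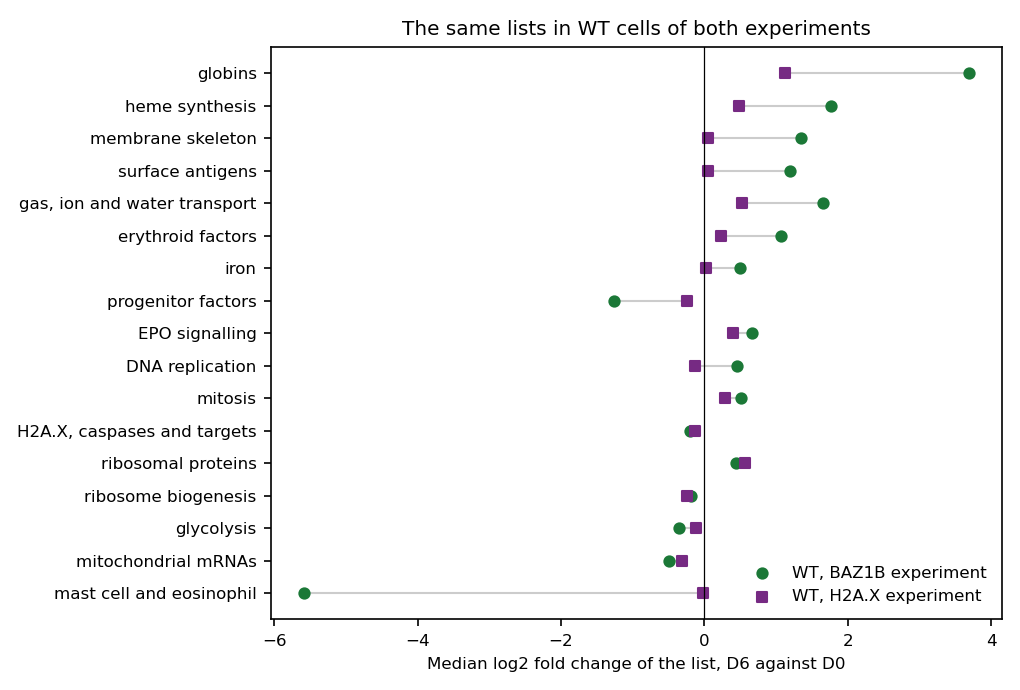
Median log2 fold change (D6 against D0, x axis) of 17 gene lists in WT cells of the BAZ1B experiment (green circles, 3 libraries a day) and of the H2A.X experiment (violet squares, 2 libraries a day), both from 1 fit. Globins lie at 3.69 and 1.12, and ribosomal proteins lie side by side. The mast cell and eosinophil medians are fitted values that include genes near 0 counts, at D6 in the BAZ1B experiment and on both days in the H2A.X experiment, and do not measure the size of a change or its absence.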

How the data were processed

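The authors deposited raw counts per gene name, with no normalization, from oligo-dT selected RNA whose reads were mapped to hg38 with STAR. The labels' processing notes also name Subread 1.6.4 and featureCounts. The labels describe an unstranded kit and the methods a stranded one, so overlapping and antisense genes are uncertain.

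The 12 libraries of the BAZ1B experiment, KO included for the spread, were filtered (filterByExpr, minimum count 10, total 15), TMM-normalized and tested two-sided by quasi-likelihood in edgeR 4.0.16 (R 4.3.3), each genotype and day having its own coefficient. SE came from the F statistic. Where no library of a day exceeded 3 reads, the fold against 3 reads per library is a lower bound. WT of both experiments was compared in a fit of 10 libraries. Read counts lack molecular identifiers, so precision rests on replicates. Coordinates and transcript lengths came from GENCODE for hg38, to which 36434 of 59087 names matched directly and 759 by an older name. The code was tested on simulated data.

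Named genes were, with a mean of at least 100 and no overlap between days, 15 DEGs of largest change each way, then the 10 genes with most counts at D6, members of 39 lists and the 5 largest differences each way in both interaction tests. Members and lists were chosen with earlier results of these data known. Alternatives were DESeq2 1.42.0, other normalizations, filters and cutoffs, a length and GC correction, a replicate block and leaving out each library. KIF23, PER1 and OAS1 are not analysed here, and some members of the lists are not reported here.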

Additional observations from a re-analysis of the deposited data

Results flagged for a closer look

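Results are given here because a test found that the change from D0 to D6 differed between groups of cells; groups of 3 libraries are too small for a search for outlying samples. Between BAZ1B KO and WT, 343 genes differed. Of these the extremes (KO minus WT, log2) were RUNX2 at -4.37, ANXA1 at -4.15, SIGLEC6 at -3.04, SPTAN1 at -2.86 and PKM at -2.72, and C17orf99 at 2.80, GLIPR2 at 2.82, LTBP1 at 2.82, FRMD4A at 2.95 and PITX1 at 5.48. The sizes for RUNX2, C17orf99, GLIPR2, FRMD4A and PITX1 depend on the prior count of the fit, since a KO group had a mean below 4. The mean normalized counts of RUNX2 in WT were 677 at D0 and 25.9 at D6, and in KO they were 643 and 1.05. Those of PITX1 were 39.9 and 1374 in WT, against 0 and 191 in KO.

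Between WT cells of the BAZ1B and the H2A.X experiment, 3257 genes differed. The extremes (BAZ1B experiment minus H2A.X experiment, log2) were MYO1F at -8.62, RUNX2 at -7.22, GPR85 at -7.16, PSMB9 at -6.93 and CST7 at -6.83, and SLC4A1 at 5.70, ANKH at 5.77, TRIM10 at 5.78, LRP1 at 6.59 and SMOX at 8.38. All are fitted values. That of SMOX and its place in this order depend on the prior count because of a D0 group with no read. So does the size for MYO1F, with at most 2 reads in each D6 library of the BAZ1B experiment. The sizes for GPR85 and PSMB9 rest on at most 4 reads in each of these libraries. SMOX had 18.4 and 25.2 at D0 and 83.5 and 209.9 at D6 in the H2A.X experiment, and no read at D0 and a mean of 269 at D6 in the BAZ1B experiment. LRP1 had 45.1 and 21.4 at D0 and 35.2 and 11.3 at D6, and means of 17.9 at D0 and 1302 at D6. MYO1F had 8.35 and 13.6 at D0 and 9.27 and 17 at D6, and means of 330.2 at D0 and 0.835 at D6.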

How the results depend on the processing

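The counts of genes that rose and fell, and the DEGs, stayed within 1.5 times of the reported ones under every alternative except the looser cutoffs of an adjusted p below 0.05 and a log2 fold change above 1, which gave 1341 higher and 1966 lower. DESeq2 gave 1677 DEGs, of which 1596 were among the 1627 reported. Leaving out 1 WT library gave 4345 to 4488 genes that rose, 4540 to 4657 that fell, 501 to 555 DEGs higher and 871 to 941 lower. The number of genes whose change differed in KO was the least stable: 698 with DESeq2, 987 with no filter on low counts, 718 with the replicate block, 799 with the length and GC correction and the replicate block, and 119 to 188 without 1 WT library; the cause was not tested. The difference between experiments gave 2326 to 4888 genes without 1 library, the highest without D0 replicate 2 of the H2A.X experiment. Replicate numbers were not taken as pairs: same-numbered D0 and D6 libraries had correlations of 0.155, 0.0087 and 0.183 of their deviations, and the block gave 605 DEGs higher and 1122 lower. Of 247 genes followed, 237 kept direction and call in every alternative. The length and GC correction, alone and with the replicate block, turned CD44 (0.035 and 0.034), H2AFX (0.17 and 0.17), BAZ1B (0.11 and 0.11) and XPO7 (0.13 and 0.13). Alone, it moved the share that was higher, among genes called at an adjusted p below 0.05, from 48.7% to 57.5%. By its construction this correction shifts all genes. Transcript length and GC were known for 89.4% of genes.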

Other observations

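The gene groups here were chosen after their values were seen and have no test, and their counts stand against 68.9% of all genes called in either direction. Among genes of zinc handling, the exporters SLC30A1 and SLC30A10 rose 95-fold and 33.9-fold, and MT2A, a metallothionein, had 9.14, 9.48 and 2.64 at D0 and 194, 203 and 184 at D6 (26.9-fold). Of the 6 exporters tested 3 rose and 2 fell, and of 11 importers 3 rose and 6 fell, shares near that of all genes. The importers that fell included SLC39A10 (3-fold) and SLC39A14 (3.56-fold). MT2A and SLC30A1 also rose in WT of the H2A.X experiment (3.92 and 2.28, log2).

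Of 15 genes of class I antigen presentation 9 fell and 3 rose, with HLA-C 6.4-fold, HLA-E 4.42-fold and B2M 1.68-fold lower and ERAP1 2.4-fold higher. Of 31 genes of the actin cytoskeleton 27 fell and 3 rose: ACTG1, gamma actin, had 53506, 51150 and 49699 at D0 and 10169, 9645 and 8444 at D6 (5.46-fold lower), FLNA, filamin A, fell 6.7-fold, MSN, moesin, 4.55-fold and TMSB4X, which sequesters actin monomers, 14.7-fold, whereas TLN1, talin, rose 1.88-fold. All 8 annexins tested fell (median log2 fold change -1.68).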
